A study of Homo sapiens with 6 samples.

Results

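The transcripts described here are those of 5 matrix metalloproteinases (MMP1, MMP2, MMP7, MMP14 and MMP15), 4 of their inhibitors (TIMP1, TIMP2, TIMP3 and RECK) and an inducer, BSG. They were taken from the array table by gene symbol: a probe set belonged if its only symbol in the platform annotation was one of these 10. All 10 genes were found among the 19775 with a probe set of their own symbol, with 25 of the 54613 probe sets that are not controls. M5 cells, a subpopulation that the labels describe as selected in vivo from SW480 for raised capacity to spread to the liver, were compared with SW480, the human colorectal cancer cell line from which M5 was derived. Both were cultured in RPMI medium with fetal bovine serum, with no added treatment in the labels, and each was measured on 3 Affymetrix arrays called biological replicates. The labels do not say whether M5 is 1 clone or a mixed population, nor which host was used for the selection. The comparison asks which transcripts of matrix degradation differ between the selected and the parental cells.

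Matrix metalloproteinases are zinc-dependent enzymes that cut collagens, laminins and other matrix proteins, and also cell surface proteins and growth factors. They are made as inactive precursors, and tissue inhibitors of metalloproteinases (TIMPs) block the active enzymes. MMP14 sits in the cell membrane, and with TIMP2 as a bridge it activates the precursor of MMP2, so TIMP2 takes part in activation as well as inhibition. In colorectal tumours much of the MMP1 and MMP2 comes from stromal cells, whereas MMP7 is typically made by the tumour epithelium. RECK is a membrane-anchored inhibitor, and BSG (basigin, also called EMMPRIN or CD147) on tumour cells can induce metalloproteinases in neighbouring cells.

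The arrays differed in brightness and in how near they lay to each other, which touches every comparison below. The 2% trimmed mean signal was 27.24 to 67.72 on M5 arrays and 21.12 to 87.09 on SW480 arrays, so all values given here are signals after quantile normalisation. M5 replicate 1 and SW480 replicate 1 were the dimmest array of each group and are called the dimmer pair. M5 replicates 2 and 3 correlated at r = 0.994 over the 5462 brightest probe sets, and the median absolute deviation (MAD) between them was 0.129 on the log2 scale, against r of 0.894 to 0.958 and MAD of 0.325 to 0.536 for the other pairs of arrays. Means and SDs therefore take these arrays together as 1 sample, so that n = 2 for M5, and results without the dimmer pair, or with these arrays averaged, stand beside the 6-array fit. By the same measures, M5 replicate 1 lay nearer to SW480 replicate 1 (r = 0.952, MAD 0.325) than to M5 replicates 2 and 3. For those, r was 0.935 and 0.933 and MAD 0.439 and 0.448. An 18S ribosomal RNA control was bright on M5 replicate 1 and SW480 replicates 1 and 2, and dim on the other arrays. Epithelial markers matched the labels in part: EPCAM signal was 2239 to 2878 in M5 and 2169 to 2521 in SW480, while the intestinal genes CDX1, CDX2 and CDH17 lay below the filter on low signals. In limma, EPCAM had a log2 fold change of 0.07 (95% interval -0.25 to 0.39), the epithelial cadherin gene CDH1 one of 0.04 (-0.43 to 0.51) and the vimentin gene VIM one of -0.06 (-0.96 to 0.83). The table holds no detection calls, and array number limits the precision. In a bulk measurement, fewer cells of a kind and less RNA per cell cannot be told apart.

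The promoters of MMP7 and TIMP1, as RefSeq gives them for build GRCh38.p14, are shown because they differ in kind: MMP7 was the secreted protease whose probe set stayed above the percentile 77 of its array in every case, and TIMP1 the inhibitor whose groups lay apart on all 6 arrays with M5 lower. Of the 10 genes, 7 had a promoter in the RefSeq table. Each line holds the 250 bases before the transcription start, on the gene's strand. Capitals mark matches on either strand to the letters TGANTCA (AP-1), CTTTGNA (TCF/LEF, the partners of beta-catenin), GGAAG (the core bound by ETS factors), GGGCGG (SP1) and TATAAA (the TATA box).
MMP7 (chr11:102530748-102530997, minus strand): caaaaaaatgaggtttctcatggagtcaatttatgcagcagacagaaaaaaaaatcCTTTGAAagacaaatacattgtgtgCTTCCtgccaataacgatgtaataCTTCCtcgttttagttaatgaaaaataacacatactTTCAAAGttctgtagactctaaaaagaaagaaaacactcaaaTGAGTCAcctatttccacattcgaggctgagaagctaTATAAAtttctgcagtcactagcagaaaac
TIMP1 (chrX:47582186-47582435, plus strand): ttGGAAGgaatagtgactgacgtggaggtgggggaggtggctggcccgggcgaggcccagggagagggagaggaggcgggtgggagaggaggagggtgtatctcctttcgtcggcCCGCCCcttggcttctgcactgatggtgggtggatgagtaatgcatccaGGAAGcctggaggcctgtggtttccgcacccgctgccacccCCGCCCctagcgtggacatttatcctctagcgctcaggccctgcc
The MMP7 window held 1 AP-1 match 67 to 61 bases before the start, 2 TCF/LEF matches, 2 ETS matches and a TATA box 30 to 25 bases before the start, and its content of G and C was 33.6%. The TIMP1 window held 2 ETS and 2 SP1 matches, none of the other motifs, and 64.8% G and C. No marked matches overlapped. The background was 35116 promoters of this length in the RefSeq table, with 1 chromosome, not that of MMP7 or TIMP1, left out. Among them AP-1 letters were present in 6.57%, TCF/LEF in 12.8%, ETS in 65.1%, SP1 in 42.6% and the TATA box in 10.7%. A match is a run of letters and not a measured binding site.

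No metalloproteinase, TIMP, RECK or BSG transcript differed between M5 and SW480 past the threshold on the 6 arrays. Of the 25 probe sets, 15 passed the filter on low signals, which left out the 40% with the lowest mean log2 signal, and they covered 9 of the 10 genes. MMP1 was the gene with no probe set past it. With limma and Benjamini-Hochberg adjustment at 0.05, none of the 9 genes was called (0 higher in M5, 0 lower), where 0.0983% of the 14243 genes tested were called higher and 0.0913% lower. At an unadjusted p under 0.05 in limma, 1 of the 9, TIMP2, was higher and 0 lower, against 5.42% and 6.14% of all genes. Adjusted p over all genes lay between 0.36 and 0.994. Of the 9 genes, 6 had a fold change above 0 and 3 below, with a median log2 fold change of 0.34, against a median of -0.01 over all genes tested.

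**Figure D1:**
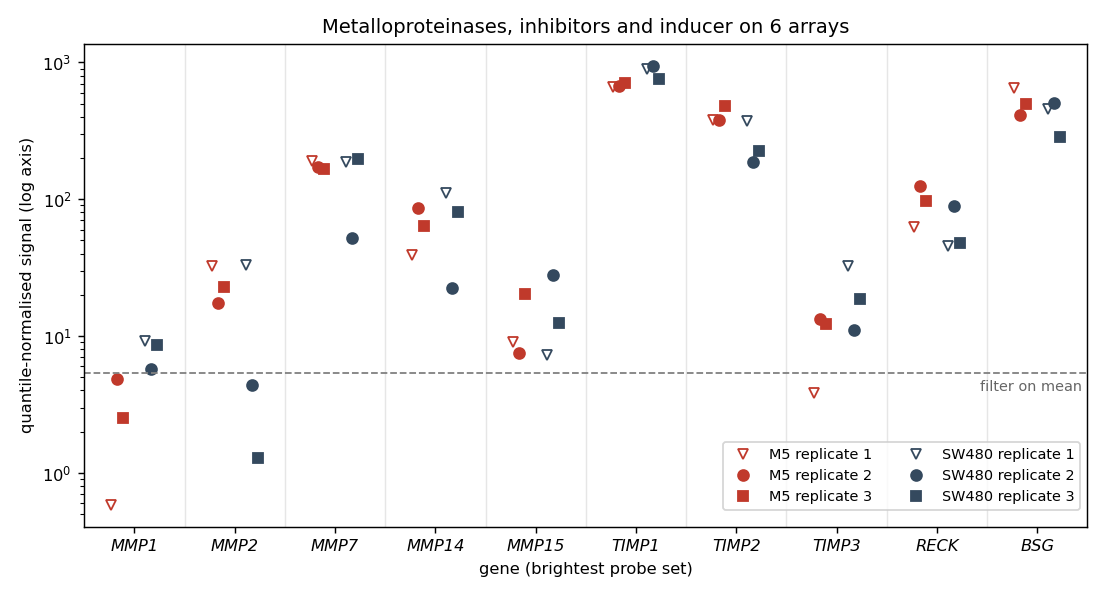
Quantile-normalised signal on a log axis for the brightest probe set of each of the 10 genes. Red symbols are M5 arrays and dark symbols SW480 arrays, with open triangles for the dimmer pair. The dashed line marks the filter on mean log2 signal; MMP1 lies around and below it, and TIMP1 is the one gene past the filter whose 3 M5 symbols, at 657 to 708, all lie below its SW480 symbols, at 752 to 942.

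By the brightest probe set past the filter, TIMP2 and TIMP1 were the genes whose groups did not overlap, in opposite directions. TIMP2, which binds MMP2 and MMP14, had signals of 378, 381 and 476 in M5 replicates 1 to 3, against 375, 188 and 224 in SW480 replicates 1 to 3, for its brightest probe set, 231579_s_at. Every M5 array was thus above every SW480 array, but M5 replicate 1 and SW480 replicate 1 nearly met. TIMP2 averaged 403 ± 36.2 (SD, n = 2) in M5 and 262 ± 99.5 (SD, n = 3) in SW480. In the fit of all 6 arrays, with each M5 array counted singly, its log2 fold change, M5 over SW480, was 0.70 (standard error, SE, 0.26; 95% interval 0.13 to 1.27). Its limma p was 0.0208 before and 0.36 after adjustment. The groups did not overlap in 7.66% of all genes with M5 higher and in 8.42% with M5 lower, so 1 gene of the 9 in each direction, TIMP2 and TIMP1, is close to that background.

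The other TIMP2 probe sets, 224560_at and 203167_at, had log2 fold changes of 0.31 (95% interval -0.23 to 0.85) and 0.89 (-0.09 to 1.88). On 203167_at, the signals were 74.7, 124 and 105 on the M5 arrays and 111, 26.3 and 48.7 on the SW480 arrays, in replicate order. All 3 TIMP2 probe sets therefore pointed towards M5, and in each the highest SW480 value came from replicate 1, the dimmer array. On the dimmer pair alone, the log2 differences of 231579_s_at, 224560_at and 203167_at were 0.01, -0.20 and -0.57. On the 4 brighter arrays they were 1.05, 0.56 and 1.62. Without the dimmer pair, limma called TIMP2 higher in M5 (log2 fold change 1.06, SE 0.18, adjusted p = 0.00926 over genes), in a fit that called 5.03% of all genes higher and 6.31% lower. The M5 side of that fit is the pair of arrays counted as 1 sample, and with these averaged as well the adjusted p in limma was 0.142. That last fit holds 1 M5 sample, assumed to vary as the 2 SW480 arrays do. With M5 replicates 2 and 3 averaged and the dimmer pair kept, TIMP2 had a log2 fold change of 0.67 (95% interval -0.02 to 1.37, limma adjusted p = 0.841).

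TIMP1, a secreted inhibitor of most metalloproteinases that also has growth-promoting activity, lay between the percentiles 97 and 97.9 of the probe sets of each array. Its signal was 657, 675 and 708 on the M5 arrays and 892, 942 and 752 on the SW480 arrays, in replicate order. All M5 arrays were below all SW480 arrays, and within M5 the arrays lay close together. The means were 674 ± 24.8 (SD, n = 2) in M5 and 862 ± 98.5 (SD, n = 3) in SW480, with a log2 fold change of -0.34 (SE 0.16, 95% interval -0.69 to 0.02, limma adjusted p = 0.462). The difference was -0.44 on the dimmer pair and -0.28 on the brighter arrays, and -0.48 and -0.12 within the sets with a bright and a dim 18S control. With no overlap between the groups, each of these sets had to give a difference below 0, so the shared sign adds nothing. TIMP1 did not pass the test.

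TIMP3, which unlike its relatives binds to the matrix itself, had 4 probe sets, of which 1, 201149_s_at, passed the filter. Its signal was 3.8, 13.3 and 12.2 on the M5 arrays and 32.4, 11.1 and 18.6 on the SW480 arrays, in replicate order. The groups overlapped, and the widest gap lay between the arrays of the dimmer pair. TIMP3 had a log2 fold change of -0.98 (SE 0.57, 95% interval -2.23 to 0.27, limma adjusted p = 0.543), with -2.63 on the dimmer pair and -0.16 on the brighter arrays. It was -0.53 without M5 replicate 1 and -0.64 without SW480 replicate 1. The other 3 TIMP3 probe sets had signals of at most 12 on any array, and their log2 fold changes in a fit without the filter were -0.24, -0.23 and -1.07.

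RECK, the membrane-anchored inhibitor, gave probe sets that disagreed in direction. The brightest, 216153_x_at, had signals of 62.8, 124 and 97.1 on the M5 arrays and 45.5, 89.2 and 48 on the SW480 arrays, in replicate order, a log2 fold change of 0.64 (SE 0.35, 95% interval -0.14 to 1.41, limma adjusted p = 0.523), which was 0.42 without M5 replicate 2. On the probe set 205407_at the signals were 9.23, 6.87 and 4.1 on the M5 arrays and 11.2, 16.7 and 9.97 on the SW480 arrays, a log2 fold change of -0.78 (SE 0.54, 95% interval -1.97 to 0.40). There every M5 array was below every SW480 array, whereas the groups overlapped on the brightest probe set. The remaining kept RECK probe sets, 1558116_x_at and 1558115_at, had log2 fold changes of 0.91 and 0.38. The suffix _x_ is the array maker's mark for probes that can also bind other transcripts, and 205407_at is the one that the platform annotation pairs with a RefSeq mRNA of RECK. Which of them tracks the RECK transcript was not tested, and no direction is given for RECK as a gene.

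**Figure D2:**
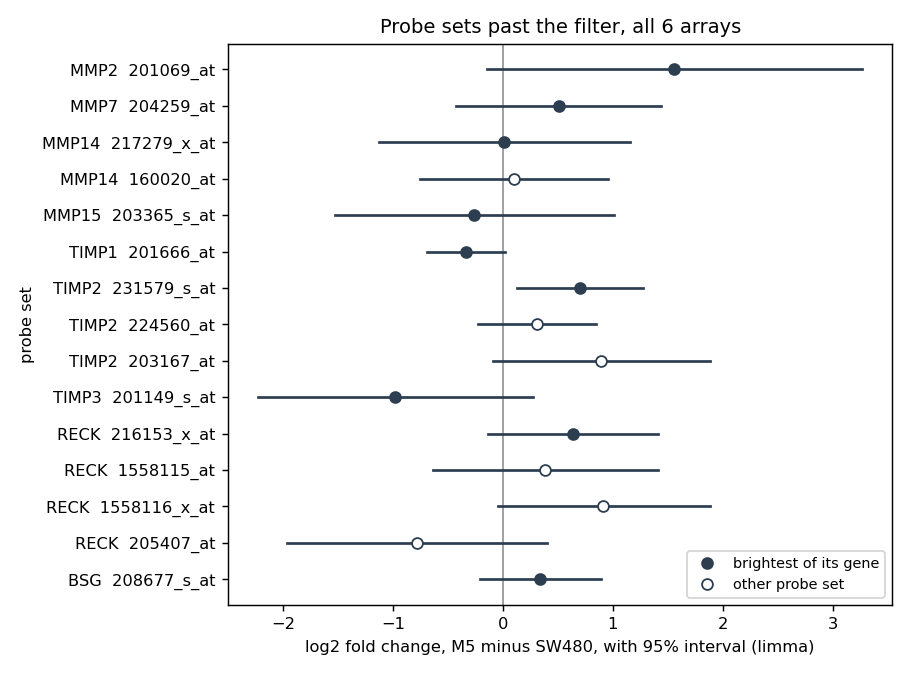
Log2 fold change, M5 minus SW480, for the 15 probe sets past the filter, with limma's 95% interval as a line. Filled circles are the brightest probe set of each gene. The interval of TIMP2 231579_s_at, 0.13 to 1.27, is the one that lies off 0, before adjustment for the number of tests; the RECK probe sets fall on both sides.

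Among the proteases, MMP7 passed the filter on its only probe set and MMP14 on 2 of 4, while MMP2 was not steady between arrays. MMP7, or matrilysin, a small secreted protease without the hemopexin-like domain of most relatives, had signals of 191, 173 and 167 on the M5 arrays and 186, 51.8 and 196 on the SW480 arrays, in replicate order. SW480 replicate 2 was low, and the other arrays lay near each other. The log2 fold change was 0.51 (SE 0.43, 95% interval -0.43 to 1.44, limma adjusted p = 0.696). Without SW480 replicate 2 it was -0.11 (95% interval -0.65 to 0.42), so the direction for MMP7 rests on that array.

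MMP7 lies at one end of a run of 9 metalloproteinase genes that follow each other on chromosome 11 in RefSeq (MMP7, MMP20, MMP27, MMP8, MMP10, MMP1, MMP3, MMP12 and MMP13). Of the 9, MMP7 alone had a probe set past the filter. MMP1, the interstitial collagenase, belongs to the same run. Its 1 probe set had signals of 0.583, 4.85 and 2.53 on the M5 arrays and 9.23, 5.7 and 8.55 on the SW480 arrays, in replicate order. Every M5 array was below every SW480 array, but all were low signals. MMP1 stood between the percentiles 5.39 and 47.7 of the probe sets of an array. In a fit without the filter its log2 fold change was -1.24 with a limma p of 0.0816 before adjustment, and at such signals the value sets no firm fold.

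MMP2, the gelatinase that MMP14 activates, had 1 of 3 probe sets past the filter. On 201069_at the signal was 32.7, 17.5 and 22.9 on the M5 arrays and 33.2, 4.38 and 1.28 on the SW480 arrays, in replicate order. M5 was higher than SW480 replicates 2 and 3, but SW480 replicate 1 matched the highest M5 array. MMP2 had the widest interval of the group, with a log2 fold change of 1.56 (SE 0.78, 95% interval -0.15 to 3.27, limma adjusted p = 0.47). The difference was -0.02 on the dimmer pair and 2.35 on the brighter arrays. Without SW480 replicate 3 the log2 fold change was 0.76 (limma adjusted p = 0.739), and with a pseudocount 4 times as large it was 0.99. Without SW480 replicate 1 it was 2.64 (limma adjusted p = 0.0767), and with limma's array weights, a fit that called 3.81% of all genes higher and 5.05% lower, it was 2.05 (adjusted p = 0.044). That fit also called TIMP2 (log2 fold change 0.90, limma adjusted p = 0.0168). Taking the closely matching M5 arrays as 1 sample, MMP2 had an adjusted p of 0.853 in limma. The other 2 probe sets of MMP2 had signals of at most 8.27.

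MMP14, the membrane-type protease that activates MMP2, had 2 of 4 probe sets past the filter. The brightest, 217279_x_at, carries the _x_ suffix of probes that can also bind other transcripts. Below the filter were 202828_s_at, which the platform annotation pairs with a RefSeq mRNA of MMP14, and 202827_s_at, with signals of at most 6.02. Their log2 fold changes in a fit without the filter were -0.20 and -0.60. Which probe set tracks the MMP14 transcript was not tested. On 217279_x_at the signal was 39.1, 85.9 and 63.2 on the M5 arrays and 111, 22.6 and 80.9 on the SW480 arrays, in replicate order. SW480 held both the highest and the lowest value, so the groups overlapped fully. The log2 fold change was 0.01 (SE 0.52, 95% interval -1.13 to 1.16, limma adjusted p = 0.994), and on 160020_at it was 0.10 (95% interval -0.76 to 0.96). On the dimmer pair these were -1.46 and -0.54, and on the brighter arrays 0.75 and 0.43. Leaving out SW480 replicate 2 gave -0.65 for MMP14, and leaving out M5 replicate 2 or 3 gave -0.24 or -0.02, so no direction holds for it. Differences inside those intervals were not detectable with these arrays.

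MMP15, another membrane-type protease, had signals of 9.07, 7.52 and 20.2 on the M5 arrays and 7.25, 27.7 and 12.4 on the SW480 arrays, in replicate order. The groups overlapped, with a log2 fold change of -0.26 (SE 0.58, 95% interval -1.53 to 1.01, limma adjusted p = 0.899), which was 0.20 without SW480 replicate 2. BSG, the inducer, had signals of 647, 415 and 497 on the M5 arrays and 459, 505 and 284 on the SW480 arrays. The means were 552 ± 135 (SD, n = 2) in M5 and 416 ± 116 (SD, n = 3) in SW480, with overlapping groups and a log2 fold change of 0.34 (SE 0.25, 95% interval -0.21 to 0.89, limma adjusted p = 0.644). BSG stood between the percentiles 93.4 and 97 of the probe sets of an array, and its difference was 0.50 on the dimmer pair and 0.26 on the brighter arrays. Without SW480 replicate 3, the lowest array, the log2 fold change of BSG was 0.09 (limma adjusted p = 0.927), and without M5 replicate 1, the highest, it was 0.17.

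**Figure D3:**
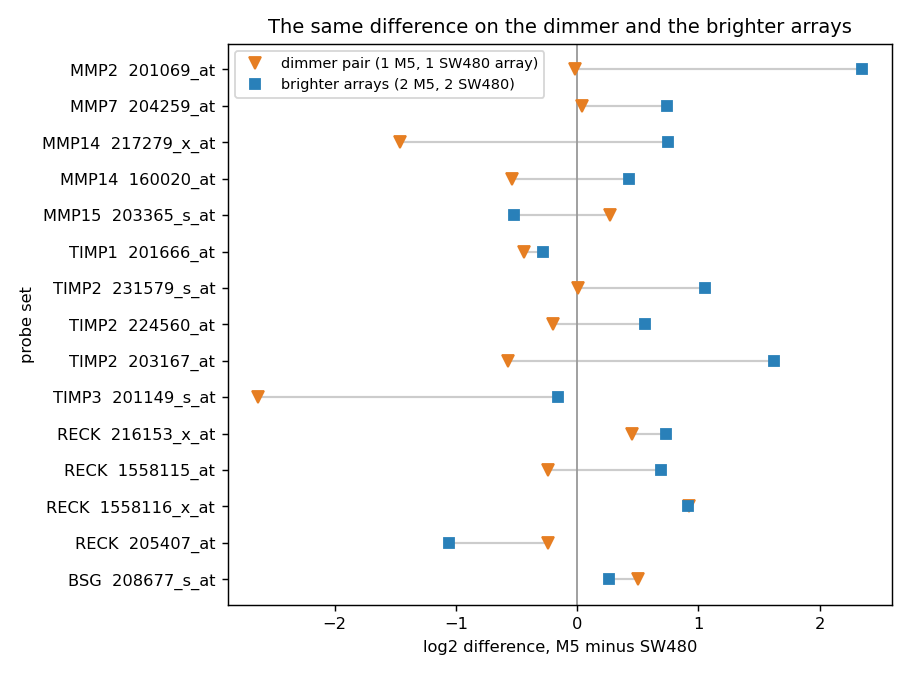
Log2 difference, M5 minus SW480, of each of the 15 probe sets on the dimmer pair (orange triangles) and on the 4 brighter arrays (blue squares). In 7 probe sets the difference had opposite signs in these sets. The 3 TIMP2 probe sets lie at 0.01 or below on the dimmer pair and at 0.56 or above on the brighter arrays.

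Of the 15 probe sets, 7 (46.7%) had opposite signs on the dimmer pair and on the brighter arrays, close to the 49.7% of all 32768 probe sets past the filter, and 8 had the same sign. On the brighter arrays 11 (73.3%) were higher in M5, against 50% of all probe sets past the filter. On the dimmer pair 6 (40%) were, against 50.5%. RECK gave 4 of the 15 and TIMP2 gave 3, so these shares do not count separate genes. TIMP1, BSG and the RECK probe sets 216153_x_at, 1558116_x_at and 205407_at were among those with the same sign. For TIMP1 and 205407_at, whose groups did not overlap, no other outcome was possible. The part of array brightness in these differences was not tested.

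By Pearson correlation of log2 signals over the 6 arrays, among 12508 genes above the median signal, the genes nearest to MMP2 were RASSF7 (r = 0.998), TSG101 (0.995), GSN (0.994) and ITPR3 (0.993). Those nearest to TIMP3 were a probe set that the platform annotation names Igk (0.986), ATP6V1H (0.985), ATP13A3-DT (0.984) and NPAS2 (0.982). MMP2 and TIMP3 were the members above that signal with the largest fold changes. Over 6 arrays that share 2 groups and a split in brightness, such values describe these arrays only.

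Other genes of matrix proteolysis were taken from a list of 99, in 8 classes, of which 92 were in the table and 73 were tested. In limma, 0 of the 73 were higher in M5 and 0 lower after adjustment over all genes, and at an unadjusted p under 0.05 the numbers were 8 and 5, where 5.42% and 6.14% of all genes reached it. The groups did not overlap for 11 higher and 6 lower genes of the list, beside 7.66% and 8.42% of all genes. The median log2 fold change of the list was -0.02, with 36 genes above 0 and 37 below. The nearest to the threshold were ELF3 and CAV1, both with a limma adjusted p of 0.069. ELF3, an epithelial ETS factor, had signals of 269, 435 and 478 on the M5 arrays and 164, 121 and 133 on the SW480 arrays, in replicate order, a log2 fold change of 1.46 (SE 0.26). CAV1, the caveolin gene whose product takes part in the membrane traffic of MMP14, had signals of 3814, 3177 and 3039 on the M5 arrays and 2023, 1153 and 972 on the SW480 arrays, a log2 fold change of 1.34 (SE 0.24). Both had no overlap between the groups, which fixes the direction on the dimmer pair, where the differences were 0.71 and 0.91. With M5 replicates 2 and 3 averaged and all other arrays kept, limma called neither (adjusted p of 0.436 for ELF3 and 0.279 for CAV1). With the dimmer pair left out as well, the adjusted p in limma was 0.0205 for ELF3 and 0.0156 for CAV1, in a fit that called 0.798% of all genes higher and 1.1% lower, with 1 M5 sample and the spread taken from 2 SW480 arrays.

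By class, 7 of 18 further metalloproteinases were tested, with a median log2 fold change of -0.12. Among further protease inhibitors, not all of them inhibitors of metalloproteinases, 4 of 8 were tested (A2M, CST3, CST6 and SERPINE2). All 4 had fold changes above 0, with a median of 0.45. SERPINE2, the gene of protease nexin-1, had groups apart (0.52, SE 0.18, limma adjusted p = 0.323). Of 11 activators of proteases, 9 were tested with a median of 0.58, and HPN, the gene of the cell surface protease hepsin, had 1.27 (SE 0.49, limma adjusted p = 0.379). HPN had signals of 68.1, 20 and 25.1 on the M5 arrays and 9.4, 14.3 and 14.6 on the SW480 arrays, in replicate order, so M5 replicate 1 stood apart, and without it the value was 0.78. The hepatocyte markers TTR, FGB, APOA1, APOA2, ALB and APOB were also highest on that array, with ALB and APOB below the filter. SERPINA1, from the same marker list, was highest on SW480 replicate 1. The part of these markers in the value of HPN was not tested. ADAMTS9, a secreted protease that cuts proteoglycans, had 1.42 (SE 0.52, limma adjusted p = 0.354) among 11 tested ADAM and ADAMTS genes with a median of 0.20. The class of cathepsins and heparanase had a median of 0.18 over 6 genes, and that of partners and clearance receptors one of -0.02 over 9.

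Of the 17 regulators of metalloproteinase genes tested, 7 had fold changes above 0 and 10 below, with a median of -0.20. The ETS factor gene ETV1 differed by -1.25 on the log2 scale (SE 0.36, limma adjusted p = 0.26). The NF-kappa-B subunit gene NFKB1 differed by -0.63 (SE 0.27, limma adjusted p = 0.412), and by -0.37 without SW480 replicate 3. CTNNB1, which encodes beta-catenin, differed by -0.42 (SE 0.16, limma adjusted p = 0.372). In each the M5 arrays lay below the SW480 arrays. At an unadjusted limma p under 0.05, 3 regulators were higher and 3 lower, beside 5.42% and 6.14% of all genes. The higher ones were ELF3, described above, ETS1 and JUND. ETS1 differed by 1.68 (SE 0.50, limma adjusted p = 0.28) and JUND by 0.57 (SE 0.21, limma adjusted p = 0.349), both with overlapping groups. Of the 10 matrix substrates tested, 8 had fold changes below 0, with a median of -0.23. LAMB3 was above 0, at 1.48 (SE 0.57, limma adjusted p = 0.379), with overlapping groups. COL3A1, a fibrillar collagen chain, had signals of 81.2, 66.5 and 44.9 on the M5 arrays and 223, 104 and 168 on the SW480 arrays, in replicate order, and differed by -1.31 on the log2 scale (SE 0.33, limma adjusted p = 0.224).

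**Figure D4:**
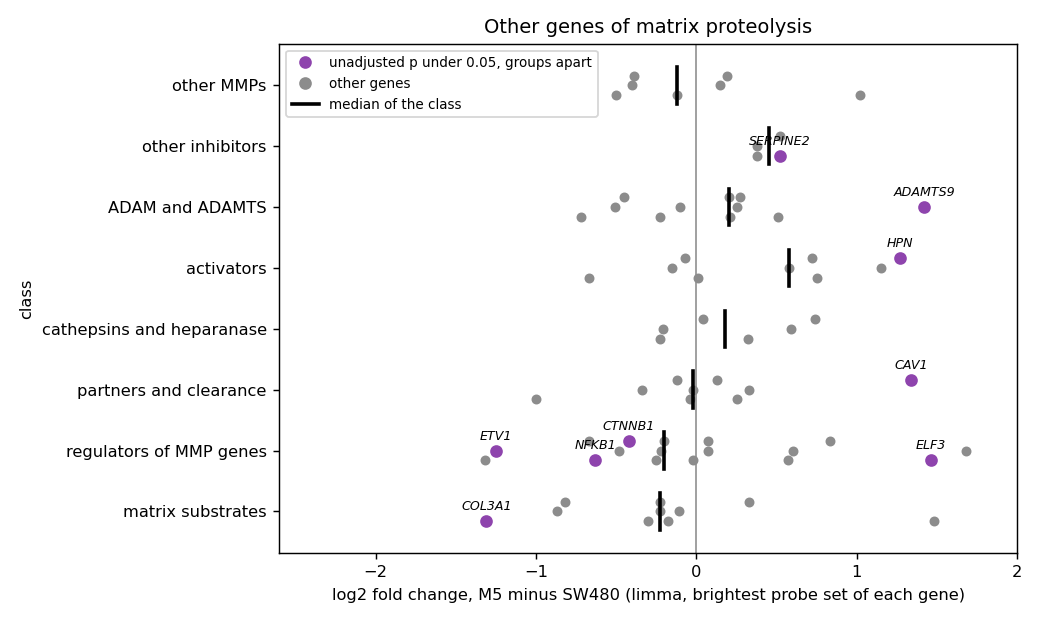
Log2 fold change, M5 minus SW480, of the 73 tested genes of the list, 1 point per gene in its class, with the median of each class as a black bar. Purple points are the 9 genes with an unadjusted limma p under 0.05 and no overlap between the groups; none passed after adjustment over all genes.

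Because stromal cells are a known source of MMP1, MMP2 and the TIMPs, markers of other cell types were read beside these results. The summed signal of the 10 fibroblast markers was 208 to 264 on the M5 arrays and 256 to 409 on the SW480 arrays. Of these markers 8 passed the filter, and none was at 0. COL1A1, the gene of a chain of type I collagen, had signals of 33.7, 69.4 and 61.9 on the M5 arrays and 42.9, 67 and 81.9 on the SW480 arrays, with overlapping groups. COL3A1, named above as a matrix substrate, is also one of these markers. Its signals, 81.2, 66.5 and 44.9 in M5 and 223, 104 and 168 in SW480, did not overlap. The 6 endothelial markers summed to 25.2 to 59.2 in M5 and 17.5 to 50.5 in SW480, and the 7 leukocyte markers in the table to 29 to 57.3 in M5 and 43.1 to 48.6 in SW480. The 7 hepatocyte markers summed to 92.2 to 568 in M5 and 83.9 to 288 in SW480, and single markers differed in pattern. TTR, the gene of a plasma carrier protein, had signals of 196, 73 and 5.68 on the M5 arrays and 5.17, 1.67 and 1.43 on the SW480 arrays, in replicate order, with no overlap. FGB, a fibrinogen chain gene, had 202, 23.8 and 9.33 on the M5 arrays and 11, 3.22 and 1.67 on the SW480 arrays, and its groups overlapped. SERPINA1, the antitrypsin gene, had 91.9, 39.5 and 62.8 on the M5 arrays and its highest signal, 235, on SW480 replicate 1. The 2 erythroid markers in the table summed to 25.5 to 69.1 in M5 and 25.9 to 40 in SW480. The part of these markers in the values of the metalloproteinases and TIMPs was not tested.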

How the data were processed

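Total RNA of M5 and SW480 cells was measured on 6 arrays. The deposited file holds 1 linear intensity per probe set and array, and the submitters' processing notes name GCOS 1.4, the array maker's software; for its settings and for a build, nothing is given in the sources used here. Gene names come from the platform annotation, checked by gene ID against RefSeq (GRCh38.p14), which matched 41043 of 41091 probe sets with 1 symbol. Arrays were quantile normalised, 62 control probe sets left out, and log2(signal + 1.7) used, the pseudocount being the 20th percentile of deposited values; it understates changes of low signals. The 32768 probe sets past the filter were fitted with limma 3.58.1 (R 4.3.3; lmFit and eBayes with trend, two-sided). P-values were adjusted by Benjamini-Hochberg over 14243 genes, each by its brightest kept probe set, with a threshold of 0.05, or over all kept probe sets where a probe set is counted. They measure only the spread between these arrays.

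The members, the gene lists and the tests were chosen with earlier results of these data known. All members are described. From the list of other genes, those past the threshold, or with an unadjusted p under 0.05 and no overlap between groups, are named, at most 12. CDH1, EPCAM and VIM are named in any case, and the 4 genes nearest to each of the 2 members with the largest fold changes above the median signal. Alternatives changed the scaling, pseudocount, filter, variance model, weights, blocks, probe set per gene and arrays; leaving out the dimmer pair with M5 replicates 2 and 3 averaged was added after seeing the data. The scripts were tested on simulated data. Figures were drawn with matplotlib 3.10.9.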

Additional observations from a re-analysis of the deposited data

How the results depend on the processing

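Members called higher and lower were 0 and 0 in the 6-array fit, and also under every other scaling, pseudocount, filter, variance model and block tried, and leaving out any 1 array. Array weights called 2 members and 2 member probe sets higher (MMP2, TIMP2), and leaving out the dimmer pair 1 member and 2 member probe sets (TIMP2). Of the list of other genes, 0 were higher and 0 lower in the 6-array fit, beside 14 and 13 of all 14243 genes. With array weights 7 were higher and 7 lower, beside 542 and 719 of 14243. Without the dimmer pair 6 were higher and 5 lower, beside 713 and 893 of 14162. With no filter 2 were higher, beside 21 of 19775. The replicate, dim-array and 18S control blocks gave 1, 2 and 1 higher, beside 14, 39 and 10 of 14243. With no filter and with these blocks, 0 were lower. Leaving out SW480 replicate 1 gave 4 higher and 0 lower, beside 100 and 56 of 14191. Leaving out M5 replicate 1 gave 1 higher and 1 lower, beside 102 and 150 of 14223. Leaving out any other array gave 0 higher and 0 lower.

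Signs turned for 3 members and for CDH1, EPCAM and VIM. MMP14 was -0.06 with median centring, -0.01 with the larger pseudocount, -0.13 with M5 replicates 2 and 3 averaged, -0.24 with the 18S control block, and -0.65 to 0.47 leaving out 1 array. Leaving out 1 array gave -0.11 to 0.82 for MMP7, -0.67 to 0.20 for MMP15, -0.11 to 0.18 for CDH1, -0.03 to 0.15 for EPCAM and -0.57 to 0.45 for VIM. CDH1 was -0.01 with M5 replicates 2 and 3 averaged, -0.08 with the 18S control block and -0.05 as the mean of its probe sets. VIM was 0.14 with array weights and 0.37 without the dimmer pair, also with M5 replicates 2 and 3 averaged. TIMP1, TIMP2, TIMP3, MMP2 and BSG kept their sign under each alternative that gave a value. The stricter filter gave none for MMP2, MMP15, TIMP3 and ADAMTS9. For RECK, the sign of its brightest probe set, or of the mean of its probe sets, was also kept. The RECK probe sets disagreed in direction, so this gives no direction for RECK as a gene. TIMP2 lay between 0.50 and 1.06 and TIMP1 between -0.44 and -0.14. The causes were not tested. The replicate numbers gave no clear pairing: deviations of equal numbers 1, 2 and 3 correlated at 0.11, 0.02 and 0.07, and those of unequal numbers at -0.11 to 0.08. With the replicate block, 0 members were called.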
